A study of Mus musculus with 10 samples.

Results

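The cells described are *Apln*-positive blood endothelial cells (BECs) of mouse ear skin: 583 cells, 542 of them from 5 mutant mice and 41 from 2 control mice, out of 3248 wells that were kept of 3456 sequenced. A well was kept with at least 50000 reads on genes, 200 genes and at most 10% mitochondrial reads. It was called a BEC when the CPM values (reads of a gene scaled to the total reads on genes of the well) of *Flt1*, *Emcn* and *Podxl* summed to at least 300 and exceeded those of the lymphatic genes *Prox1*, *Flt4* and *Mmrn1*. Among BECs whose 7 cell-cycle genes (*Mki67*, *Top2a*, *Ccnb1*, *Ccnb2*, *Cdk1*, *Cdc20* and *Prc1*) summed to less than 500 CPM, those with *Apln* at or over 50 CPM are the *Apln*-positive cells, and the remaining 837 cells are called *Apln*-lower. The cells were therefore chosen by the measured levels of *Apln*, the 3 BEC genes, the 3 lymphatic genes and the cell-cycle genes, whose values are given only as a description.

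Mutant mice carried a Cre-inducible Pik3ca H1047R allele, an activating change of the catalytic subunit of phosphoinositide 3-kinase (PI3K), together with Cdh5-CreERT2, which is driven in blood and lymphatic endothelium alike. They received 4-OHT (4-hydroxytamoxifen, 10 mg/ml in acetone) on the dorsal ear skin at 3 wk of age and were analysed at 5 wk. Control 1 was an untreated C57BL/6J mouse of 5 wk, and control 2 was a Cre- animal of the Pik3caH1047R;Cdh5-CreERT2 strain that received 4-OHT at the same age. Another control mouse was not analysed here. Cells were sorted with antibodies to Podoplanin and CD31, with CD45+, CD11b+ and Ter119+ cells left out, into 384-well plates and sequenced with Smart-Seq2, a full-length method without molecular identifiers. Mutants 3 and 5 had 2 plates each and the other mice 1, with 99738886 to 151102969 reads on genes a plate. The labels name every well a sorted lymphatic endothelial cell (LEC). The study's methods, however, say that both LECs and BECs were sorted, and 1490 of the kept wells met the BEC rule. The plate numbers of mutants 1 to 4 lie in one series and those of mutant 5 and both controls in another, so that genotype and plate series cannot be told apart except through mutant 5.

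Apelin, the peptide made from *Apln*, is a secreted ligand of the G protein-coupled receptor APJ, the product of *Aplnr*. In growing vessels it is made mainly by tip cells at the front of sprouts, whereas its receptor is found mostly on venous and capillary endothelium, and it is nearly silent in most resting adult vessels. Endothelial PI3K signaling lies downstream of VEGF and TIE receptors, and its activation in veins and capillaries leads to venous malformations. *Apln* (ENSMUSG00000037010) lies on chromosome X at 48025146 to 48034853 of GRCm38, on the minus strand.

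*Apln*-positive cells made up a larger part of the BECs in every mutant than in either control. Their share of non-cycling BECs was 47.7% in mutant 1 (83 of 174 cells), 49.4% in mutant 2 (83 of 168), 55.3% in mutant 3 (173 of 313), 42.7% in mutant 4 (73 of 171) and 45.6% in mutant 5 (130 of 285). In control 1 it was 9.55% (15 of 157 cells, exact Clopper-Pearson 95% interval 5.45 to 15.3%) and in control 2 it was 17.1% (26 of 152, 11.5 to 24.0%). All 5 mutants lay above both controls, with a mean of 48.1 ± 4.71% (SD, n = 5) against 13.3%, a difference of 34.8 percentage points. The share is set by the *Apln* limit that chose the cells and is given as a description; with 5 mice against 2, a two-sided exact permutation test cannot go below p = 0.0952. In the plate series that holds both genotypes, mutant 5 exceeded the controls by 32.3 points. The 2 plates of mutant 3 gave 46.0 and 65.3%, and those of mutant 5 gave 45.1 and 46.2%. In the sort a share reflects the gate as well as the tissue, and the intervals cover counting error only.

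**Figure D1:**
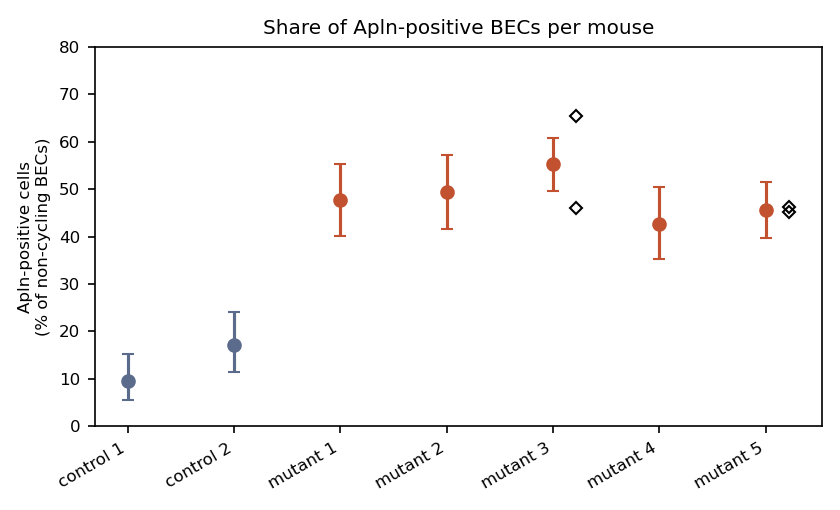
Share of *Apln*-positive cells among non-cycling BECs (y axis, percent) for each mouse (x axis); circles are mice, bars are exact 95% intervals for counting error, and open diamonds are the single plates of mutants 3 and 5. The 5 mutants sit between 42.7 and 55.3% and the 2 controls at 9.55 and 17.1%.

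Within mutant mice the cells fell into a lower and an upper group by their *Apln* level. The median level of *Apln*-positive cells was 844 CPM in mutant 1, 1489 in mutant 2, 1148 in mutant 3, 1597 in mutant 4 and 922 in mutant 5, and 830 and 510 CPM in controls 1 and 2. The *Apln*-lower cells had medians of 8.82 to 15.7 CPM in the mutants and of 0 in both controls. Both control medians of *Apln*-positive cells lay below those of all 5 mutants, and 33.3 and 26.9% of these cells reached 1000 CPM in controls 1 and 2 against 42.2 to 67.1% in the mutants. Between 5 and 29 cells a mutant mouse lay from 50 to under 200 CPM, against 64 to 144 at 200 CPM or more. The 3 cells just inside the limit had 50.8, 51.6 and 53.1 CPM and the 3 just outside 49.6, 49.9 and 49.9 CPM, all 6 from mutant 3.

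**Figure D2:**
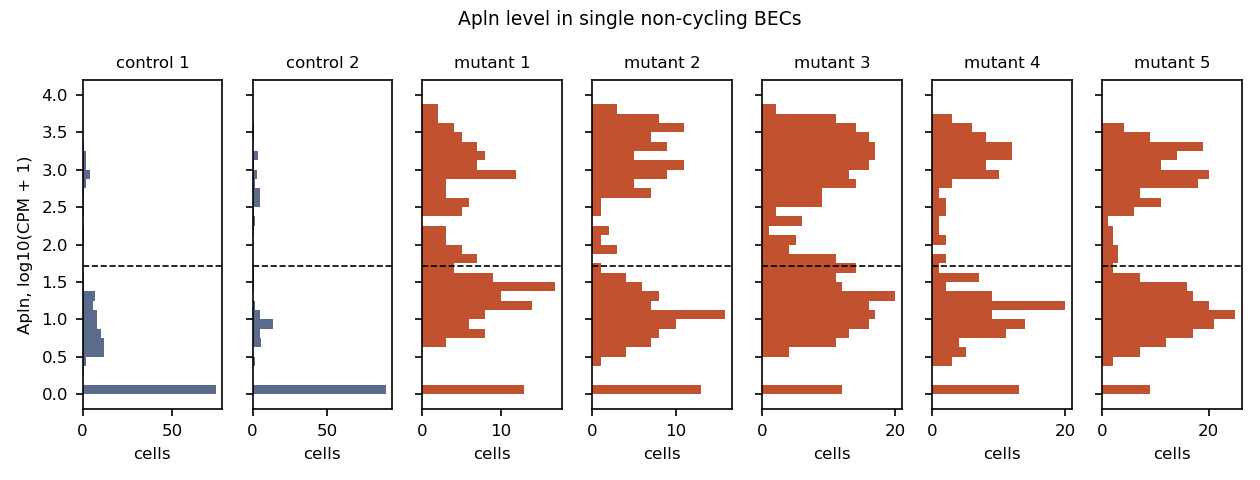
Number of non-cycling BECs (x axis) by *Apln* level (y axis, log10 of CPM + 1) in each mouse; the dashed line marks 50 CPM, above which a cell is called *Apln*-positive. Every mutant shows a lower and an upper group of cells, and in both controls most cells have no *Apln* read.

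Reads of *Apln* were also found in lymphatic cells of the same plates. At least 1 *Apln* read occurred in 71.2% of 1283 mutant LECs and in 28.2% of 358 control LECs, but 50 CPM was reached by 2.88% of mutant LECs (0.535 to 5.23% a mouse) and by 0 of 358 control LECs, which allows a share of up to 0.838% (3 cells of the total). The median LEC had 274769 to 488024 reads, the median *Apln*-positive BEC of the mutants 205442 to 459817 and their median *Apln*-lower BEC 164326 to 285179. Whether the low *Apln* values of mutant *Apln*-lower cells and LECs reflect expression was not tested. Among BECs over the cell-cycle limit, 47 of 63 in mutants and 1 of 7 in controls had *Apln* at or over 50 CPM.

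Genes and reads per cell were higher in *Apln*-positive than in *Apln*-lower cells of each mutant. Their median number of genes at 50000 reads was 4170, 4308, 4077, 3873 and 3764 in mutants 1 to 5 against 3441, 3102, 2940, 2780 and 3168, a mean ratio of 1.31. Reads on genes per spike-in read, which follows the RNA content of a well, were 1.82 times as high, and reads per cell 1.32 times. Each of these was higher in 5 of 5 mutants, with p = 0.0625 in a two-sided exact paired permutation test, the smallest possible with 5 mice, and 0.0781 after adjustment over 5 measures. The share of mitochondrial reads differed by a ratio of 1.00 (p = 0.938, the same exact permutation test). In both controls the gene number ratio was smaller, 1.01 and 1.12.

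*Pecam1*, which encodes CD31, reached 50 CPM in 100% of the *Apln*-positive cells of every mouse. In the mutants it was at 2339 to 2876 CPM in *Apln*-positive and 2672 to 3124 CPM in *Apln*-lower cells, and *Cdh5*, the endothelial cadherin, at 395 to 569 and 516 to 758 CPM. Neither passed the test described below (adjusted p = 0.0590 and 0.105, edgeR). *Cldn5*, a tight junction protein, was the 1 of 5 pan-endothelial markers that changed: it was 596, 278, 590, 301 and 503 CPM in *Apln*-positive cells of mutants 1 to 5 against 1608, 1154, 1582, 1433 and 1624 CPM (log2 difference -1.77 ± 0.14, SE). The 5 LEC markers outside the rule summed to 44.7 to 315 CPM in *Apln*-positive cells and 62.5 to 473 CPM in *Apln*-lower cells of the mutants, against 3348 to 4304 CPM in mutant LECs. One of them, *Lyve1*, reached 50 CPM in 31.3, 7.23, 33.5, 1.37 and 79.2% of *Apln*-positive cells of mutants 1 to 5. In their *Apln*-lower cells it did so in 39.6, 3.53, 18.6, 2.04 and 93.5%, and in their LECs in 84.5 to 100%. In controls 1 and 2 the shares were 66.7 and 7.69% of *Apln*-positive and 81.0 and 19.0% of *Apln*-lower cells. Reads of other cell types in control cells are described below. Immune markers, 7 genes, summed to 6.36 to 14.2 CPM in *Apln*-positive and 2.49 to 23.7 CPM in *Apln*-lower cells.

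The genes proposed as markers of these cells were higher in *Apln*-positive cells of every mutant. They were chosen with results of these data known and are therefore described here without a test. Where calls or p-values of these genes are given further on, the same limit holds for them. *Mmp2*, a gelatinase that cleaves basement membrane collagen, was at 2568, 2433, 2449, 2321 and 2119 CPM in *Apln*-positive cells of mutants 1 to 5 and at 763, 409, 332, 372 and 610 CPM in *Apln*-lower cells, a log2 difference of 2.33 ± 0.18. *Bgn*, the matrix proteoglycan biglycan, was at 2118, 1754, 1709, 1434 and 1524 CPM against 891, 549, 549, 430 and 534 CPM. For both genes the lowest *Apln*-positive value exceeded the highest *Apln*-lower value. *Vwf*, the clotting factor stored in endothelial Weibel-Palade bodies and richest in veins, was at 1636 to 2648 CPM against 727 to 1340 CPM (log2 difference 0.92 ± 0.09). *Plvap*, which forms the diaphragms of fenestrae and caveolae, was at 3318 to 5244 against 1911 to 3313 CPM (0.67 ± 0.05). *Ehd4*, a membrane-shaping ATPase of the endocytic route, was at 1353 to 1636 against 568 to 846 CPM (1.09 ± 0.08). Reads of these genes were not confined to *Apln*-positive cells. Among mutant LECs, 50 CPM was reached for *Mmp2* in 53.5 to 81.7%, *Plvap* in 58.3 to 95.7% and *Ehd4* in 41.3 to 62.7%. For *Bgn* the LEC share was 29.97 to 46.01%, and for *Vwf* it was only 1.63 to 8.7%. *Apln*-lower cells of the mutants reached 50 CPM of *Plvap* in 85.9 to 100%, against 97.6 to 100% of *Apln*-positive cells.

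Across the transcriptome, *Apln*-positive and *Apln*-lower cells were compared on reads summed per mouse and class, with the mouse as a block, by edgeR's quasi-likelihood test with Benjamini-Hochberg adjustment, and genes with an adjusted p under 0.05 are referred to as called. Of 15479 genes tested, 786 were called (5.08%), 354 higher (2.29%) and 432 lower (2.79%) in *Apln*-positive cells, and the median log2 difference of all genes was 0.03. Levels below are CPM of these summed reads after TMM scaling, in mutants 1 to 5 in that order, and differences are log2 values with SE. Of the called genes, 781 had the same direction in all 5 mice, whereas of all genes 9.75% were higher and 9.59% lower in every mouse. Genes whose classes did not overlap between mice are a part of these, and their share of all genes was not determined. Without 1 mouse, 431 (without mutant 3) to 509 genes (without mutant 4) were called, each of these numbers resting on 4 mice. With DESeq2 2227 genes were called.

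Venous genes were more often higher than lower in *Apln*-positive cells. Of 10 venous genes 6 were higher (*Nr2f2*, *Selp*, *Sele*, *Vwf*, *Lrg1* and *Icam1*) and 1 was lower (*Aplnr*), with a median of 0.57 against 0.03 for all genes, and *Vwf* is also one of the genes proposed as markers. In the alternatives described below, 1 was higher and 1 lower without cells with arterial reads, and 2 were higher in cells of similar complexity. *Nr2f2*, the transcription factor COUP-TFII that specifies veins, was at 186, 153, 140, 142 and 131 CPM against 65.6, 40.6, 61.0, 44.5 and 76.1 CPM (1.41 ± 0.18, adjusted p = 0.00541), without overlap. *Icam1*, an adhesion molecule for leukocytes, was at 498 to 680 against 282 to 439 CPM (0.85 ± 0.12, adjusted p = 0.00721), and *Lrg1*, a secreted modifier of TGF-beta signaling, at 1038 to 1823 against 651 to 1328 CPM (0.46 ± 0.07). *Selp* and *Sele*, the leukocyte-binding P- and E-selectins, were 0.68 ± 0.13 and 1.04 ± 0.22 higher, with adjusted p = 0.0271 and 0.0420. The calls of both selectins were lost without mutant 3, 4 or 5, that of *Selp* also without mutant 2 and that of *Sele* also without mutant 1, at an adjusted p of up to 0.0946 and 0.137 (edgeR).

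*Ackr1*, the atypical chemokine receptor of postcapillary venules, did not pass the test at 262 to 460 against 254 to 452 CPM (-0.04 ± 0.16, adjusted p = 0.943, edgeR), and its sign turned without mutant 3 (0.098) or mutant 4 (0.039). More of the *Apln*-positive cells nevertheless carried it: 50 CPM of *Ackr1* was reached by 65.1, 55.4, 45.1, 47.9 and 45.4% of *Apln*-positive cells and by 35.2, 23.5, 22.1, 15.3 and 21.3% of *Apln*-lower cells, against 0 to 1.09% of LECs. The share was higher in every mutant while the summed level was higher in 3 of 5. *Ephb4* (0.30 ± 0.09) and *Vcam1* (0.39 ± 0.26) did not pass the test.

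Arterial and capillary genes were lower. Of 11 arterial genes 7 fell and none rose, with a median of -1.65. *Gja4*, the arterial connexin 37, was at 37.3, 3.34, 27.0, 8.33 and 20.1 CPM in *Apln*-positive cells against 418, 171, 260, 189 and 265 CPM (-4.07 ± 0.36, adjusted p = 0.00169). The Notch target *Hey1* was at 4.43 to 18.01 against 97.3 to 225 CPM (-4.15 ± 0.30), and *Sema3g*, a guidance ligand of arteries, at 0.197 to 3.27 against 30.3 to 101 CPM (-5.29 ± 0.56). *Gja5*, *Sox17*, *Stmn2* and *Cxcl12* were 3.21, 1.31, 1.65 and 1.78 lower on the log2 scale. *Efnb2*, *Bmx*, *Jag1* and *Fbln5* were not called. For *Gja4*, *Hey1* and *Sema3g* no *Apln*-positive value of any mutant reached an *Apln*-lower value.

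Of 11 capillary genes 8 fell and none rose, with a median of -2.31. *Cd36*, the fatty acid translocase, was at 486, 540, 622, 657 and 426 CPM against 1357, 2242, 2275, 2903 and 1696 CPM (-1.91 ± 0.10, adjusted p = 0.000404). *Aqp7*, a glycerol channel, was at 10.6 to 61.4 against 181 to 712 CPM (-3.58 ± 0.20, adjusted p = 0.000404). *Car4*, a membrane-bound carbonic anhydrase, and *Lpl*, lipoprotein lipase, were 3.70 ± 0.58 and 2.85 ± 0.44 lower. The call of *Car4* was lost without mutant 3, at an adjusted p of 0.05005 (edgeR). *Rgcc*, *Cd300lg*, *Tcf15* and *Btnl9* fell as well, and *Fabp4*, *Gpihbp1* and *Meox2* were not called. Arterial and capillary genes were thus both lower in *Apln*-positive cells.

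Since arterial genes were among those with the lowest values, the comparison was repeated without cells in which *Gja4*, *Gja5*, *Hey1*, *Sema3g* and *Bmx* summed to 100 CPM or more, an alternative chosen after seeing the data. This left 54, 69, 124, 58 and 100 of the *Apln*-positive and 48, 58, 92, 65 and 89 of the *Apln*-lower cells of mutants 1 to 5, so that cells with these reads occurred in both classes. It called 304 genes, 118 higher and 186 lower, and 263 of them were also called before. Capillary genes were then lower for 7 of 11 and tip cell genes higher for 2 and lower for 4 of 16. A further fit used only cells with 3000 to 4500 genes at 50000 reads, in which the classes were closer in complexity. It called 248 genes, 105 higher and 143 lower, and 233 of them were also called before. Of the lists, 6 of 11 arterial and 5 of 11 capillary genes were lower. The shares of all genes called in these added fits are not given here.

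**Figure D3:**
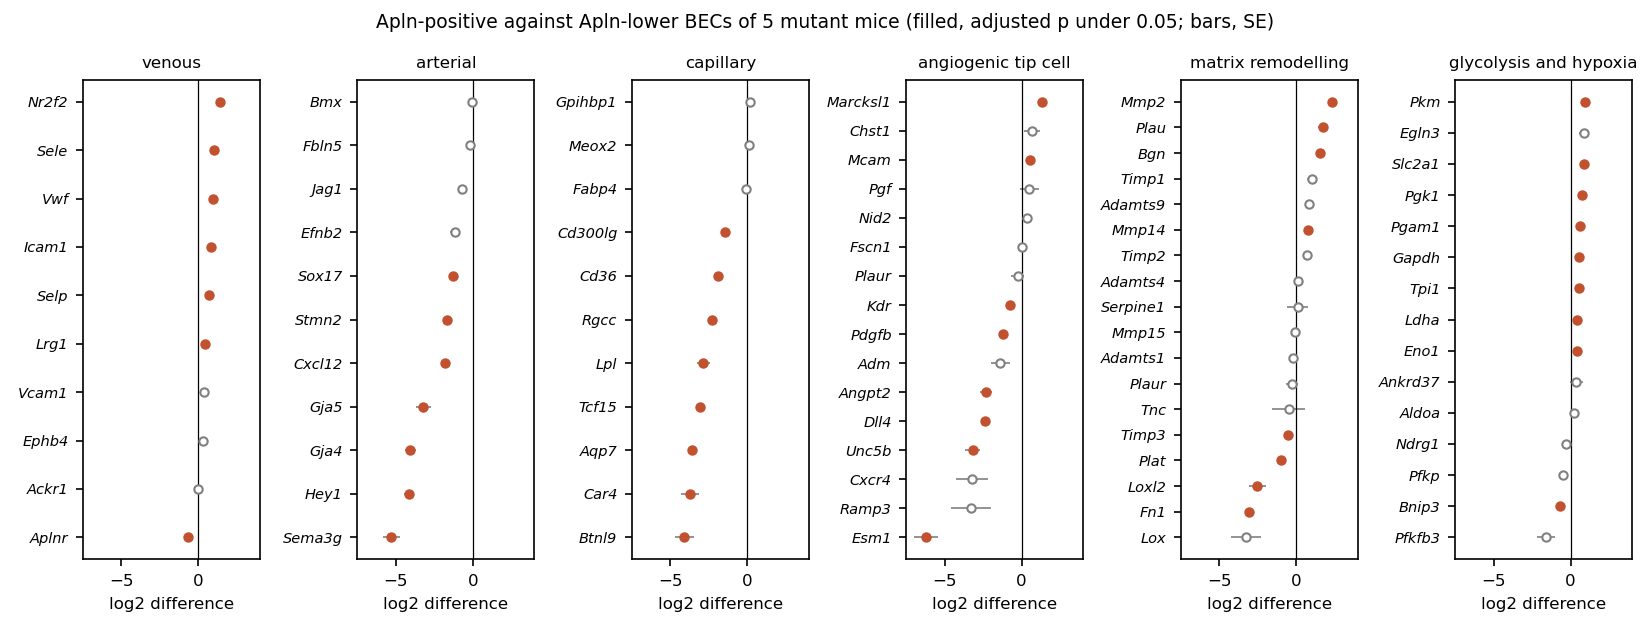
Log2 difference between *Apln*-positive and *Apln*-lower BECs of 5 mutant mice (x axis) for each tested gene (y axis) of 6 lists; filled points passed an adjusted p of 0.05, open points did not, and bars are SE. Filled venous points lie right of 0 except *Aplnr*, and all filled arterial and capillary points lie left of it.

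Genes of angiogenic tip cells were more often lower than higher in *Apln*-positive cells. Of 16 tip cell genes 2 were higher (*Mcam* and *Marcksl1*) and 6 lower (*Esm1*, *Angpt2*, *Dll4*, *Unc5b*, *Kdr* and *Pdgfb*), with a median of -0.99. Against only the *Apln*-lower cells without an *Apln* read, 9 to 13 a mouse, none of the 14 tested passed and the median was 0.33. That fit called only 28 genes in all. Most of the called tip cell genes thus went against the name angiogenic, and the cells are called by *Apln* alone. *Esm1*, the tip cell proteoglycan endocan, was at 0.111, 0.0983, 3.47, 0.171 and 0.169 CPM in *Apln*-positive cells against 11.4, 59.9, 54.8, 13.3 and 12.3 CPM (-6.23 ± 0.78, adjusted p = 0.00511). *Dll4*, the Notch ligand of tip and arterial cells, was at 35.2 to 128 against 245 to 387 CPM (-2.36 ± 0.19, adjusted p = 0.00125). For both genes the highest *Apln*-positive mouse lay below the lowest *Apln*-lower mouse.

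*Angpt2*, the antagonistic TIE2 ligand, was at 13.6, 61.6, 93.0, 39.8 and 17.8 CPM against 184, 260, 161, 155 and 151 CPM (-2.33 ± 0.41, adjusted p = 0.0194). Its call was lost without mutant 2, 4 or 5 (adjusted p up to 0.0686, edgeR), though its direction was the same in all 5 mice. *Unc5b*, a netrin receptor, and *Pdgfb*, the ligand that recruits pericytes, were 3.18 ± 0.50 and 1.19 ± 0.16 lower. *Kdr*, the main VEGF receptor, was 0.78 ± 0.12 lower and its co-receptor *Nrp1* 0.63 ± 0.12, the only 2 of 7 VEGF genes called. The call of *Nrp1* was lost without mutant 1, 2 or 3 (adjusted p up to 0.0896, edgeR). *Marcksl1*, an actin-binding protein, was higher at 74.0 to 126 against 25.2 to 47.3 CPM (1.33 ± 0.19), and *Mcam*, the adhesion molecule CD146, by 0.54 ± 0.10. The call of *Mcam* was lost without mutant 2, 3 or 4 (adjusted p up to 0.0946, edgeR).

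The summed level of the apelin receptor was lower in *Apln*-positive than in *Apln*-lower cells of the mutants. Against only the lower cells without an *Apln* read it was not lower, as given below. *Aplnr* was at 866, 723, 855, 590 and 400 CPM in *Apln*-positive cells against 1296, 1156, 1167, 1368 and 528 CPM (-0.66 ± 0.12, adjusted p = 0.0213), lower in 5 of 5 mice, and the call was lost without mutant 1 or 2 (adjusted p up to 0.0706, edgeR). The share of cells with at least 50 CPM of *Aplnr* ran the other way, 77.1, 77.1, 79.2, 68.5 and 53.8% against 65.9, 56.5, 65.7, 62.2 and 36.1%, with 0 to 4.41% of LECs. Most *Apln*-positive cells therefore carried reads of both ligand and receptor. Of the 8 tested genes of the apelin receptor list, *Klf2* and *Klf4*, flow-induced transcription factors, fell too, by 1.18 ± 0.22 and 1.44 ± 0.21, and none rose. The call of *Klf2* was lost without mutant 2, 3, 4 or 5 (adjusted p up to 0.0874, edgeR).

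Of 12 Notch genes 4 fell (*Dll4*, *Notch4*, *Hey1* and *Heyl*) and none rose, with a median of -0.64. *Notch4*, the endothelial receptor, was at 26.3 to 50.6 against 135 to 207 CPM (-2.19 ± 0.21, adjusted p = 0.00209). Of the 4 tested angiopoietin and TIE genes, *Ptprb*, the phosphatase that restrains TIE2, was higher at 1427 to 1993 against 1113 to 1362 CPM (0.54 ± 0.07, adjusted p = 0.00447). *Hey1* and *Dll4* belong to several of these lists and were counted in each.

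Matrix genes moved both ways. Of 18 tested matrix remodelling genes 4 were higher (*Mmp2* and *Bgn*, both proposed as markers, *Mmp14* and *Plau*) and 4 lower (*Timp3*, *Fn1*, *Loxl2* and *Plat*), with a median of 0.02. *Mmp14*, the membrane protease that activates the *Mmp2* product, was at 317 to 395 against 159 to 268 CPM (0.75 ± 0.14), and *Plau*, urokinase, at 56.2 to 82.6 against 9.76 to 30.6 CPM (1.73 ± 0.28). *Plat*, the tissue plasminogen activator, was 0.97 ± 0.21 lower, and *Timp3*, a protease inhibitor, 0.52 ± 0.10. *Fn1*, fibronectin, was at 45.8, 12.3, 20.5, 11.8 and 41.0 CPM against 275, 153, 211, 112 and 233 CPM (-3.06 ± 0.20, adjusted p = 0.000746). The calls of *Mmp14* (without mutant 1, 2, 3 or 4), *Plau* (2 or 3), *Timp3* (3, 4 or 5), *Plat* (2, 3, 4 or 5) and *Loxl2* (any mutant) were lost in the fits without those mice, at adjusted p up to 0.0790, 0.0584, 0.0863, 0.129 and 0.145 (edgeR).

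Of 13 basement membrane genes 3 were higher and none lower, with a median of 0.11. *Col18a1*, the collagen from which endostatin is cut, was at 912, 997, 798, 801 and 1082 CPM against 445, 496, 283, 268 and 472 CPM (1.26 ± 0.10, adjusted p = 0.00126), and *Nid1*, nidogen, was 0.56 ± 0.08 higher. *Sparc* was 0.23 ± 0.05 higher, a call lost without mutant 1, 2, 3 or 5 (adjusted p up to 0.146, edgeR). Of 10 caveolae and diaphragm genes 3 were higher (*Plvap* and *Ehd4*, both proposed as markers, and *Cavin3*) and *Cavin1* was lower by 0.36 ± 0.07, a call lost without mutant 1, 3, 4 or 5 (adjusted p up to 0.0886, edgeR).

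Glycolytic enzymes were higher. Of 15 tested glycolysis and hypoxia genes 8 rose (*Slc2a1*, *Pgk1*, *Pkm*, *Ldha*, *Eno1*, *Gapdh*, *Tpi1* and *Pgam1*) and *Bnip3* fell, with a median of 0.44. *Pkm*, pyruvate kinase, was at 1617, 1883, 1490, 1276 and 1712 CPM against 862, 866, 806, 680 and 994 CPM (0.92 ± 0.06, adjusted p = 0.000760). The glucose transporter *Slc2a1* was at 149, 247, 271, 292 and 534 CPM against 94.3, 156, 138, 125 and 317 CPM (0.86 ± 0.11, adjusted p = 0.00549), higher within each mouse although the mice overlapped. The other 6 rose by 0.42 to 0.73. The calls of *Pgk1* (without mutant 2, 3, 4 or 5), *Eno1* and *Tpi1* (1, 2, 3 or 5) and *Bnip3* (1, 2, 4 or 5) were lost in the fits without those mice, at adjusted p up to 0.0825, 0.0592, 0.0577 and 0.117 (edgeR).

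*Ccnd1*, cyclin D1, was the 1 of 11 replication and G1 genes called, at 365, 516, 310, 304 and 206 CPM against 141, 154, 104, 118 and 138 CPM (1.33 ± 0.17, adjusted p = 0.00511), without overlap. Of 11 FOXO factors and responsive genes, *Txnip*, which limits glucose uptake, and *Pik3ip1*, an inhibitor of PI3K, fell by 0.62 ± 0.07 and 0.90 ± 0.14, and *Cited2* rose by 1.25 ± 0.28, a call lost without mutant 1, 2, 3 or 4 (adjusted p up to 0.165, edgeR). Of 8 ATF4 amino acid genes *Mthfd2* rose and *Slc3a2* fell, calls lost without any of the 5 mutants and without mutant 2, 4 or 5 (adjusted p up to 0.132 and 0.0707, edgeR). Of 10 immediate-early genes, which rise with dissociation, *Hspa1a* fell by 3.17 ± 0.47. Of 7 IGF axis genes *Igf2* fell by 2.90 ± 0.45, a call lost without mutant 1 (adjusted p = 0.0552, edgeR).

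With the cell-cycle limit lifted, the share of cycling cells was higher among BECs with *Apln* at or over 50 CPM than among the others in all 5 mutants, by 5.48 ± 3.77 percentage points (SD, n = 5). Both measures belong to the rule, so that this is a description with no test. Without mutant 2 the difference was 3.81 points, and with every cell thinned to 50000 reads it was 4.62 points.

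**Figure D4:**
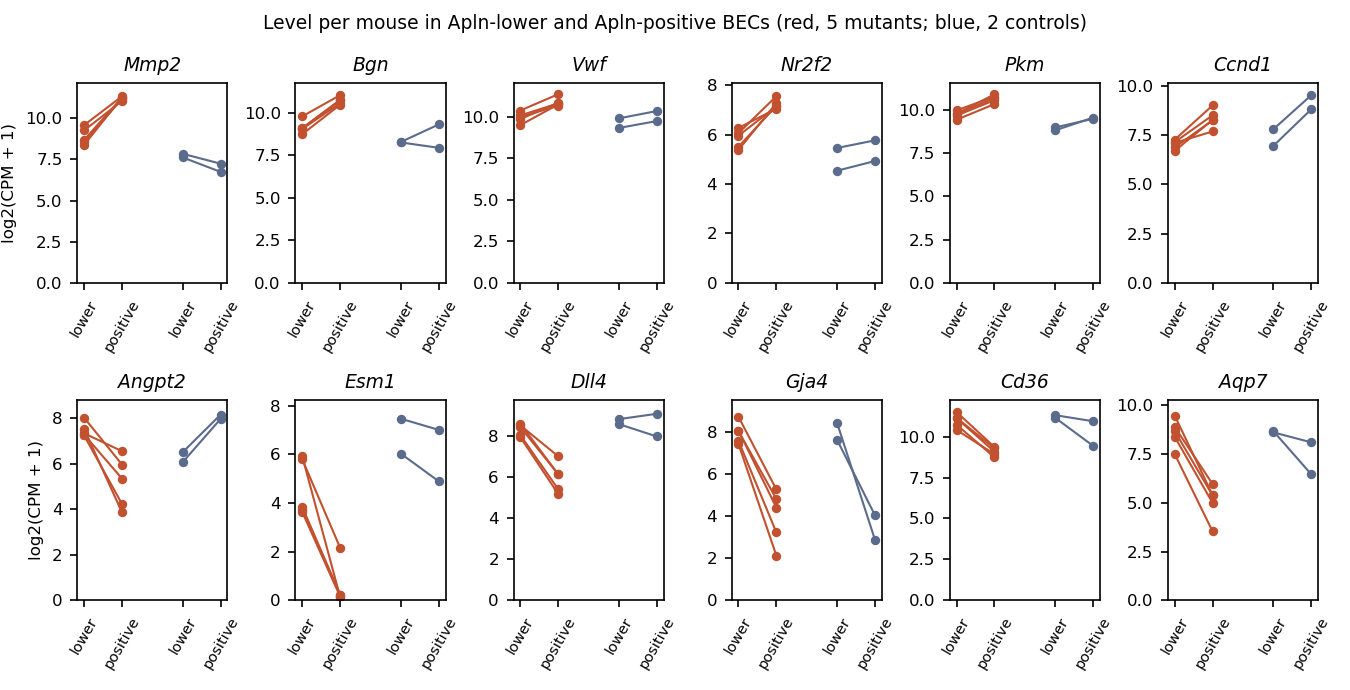
Level of 12 genes (y axis, log2 of CPM + 1 of summed reads) in *Apln*-lower and *Apln*-positive BECs; each line joins both classes of 1 mouse, red for 5 mutants and blue for 2 controls. *Mmp2* climbs in the mutants to 2119 to 2568 CPM and is at 150 and 106 CPM in *Apln*-positive control cells, and the lines of *Angpt2* slope down in the mutants and up in both controls.

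Genes were also taken by the size of their difference. Those with the largest increase at a mean log2 CPM of at least 4 included *Slco4a1*, *Slc6a2*, *Ncam1*, *Bpifb1*, *Ccdc68*, *Dkk2*, *Tmem37*, *Rab27b* and *Them5*, 2.85 to 3.91 higher. *Slc6a2*, the noradrenaline transporter, was at 70.5, 66.5, 69.6, 99.6 and 56.0 CPM against 0.647, 6.38, 3.39, 11.2 and 8.33 CPM (3.90 ± 0.56, adjusted p = 0.00902). *Dkk2*, a secreted modulator of WNT signaling, was at 147, 124, 144, 92.1 and 89.3 CPM against 29.8, 15.0, 5.97, 18.9 and 7.12 CPM (3.16 ± 0.37). *Ncam1*, the neural cell adhesion molecule, was at 31.6 to 64.2 against 0.788 to 11.5 CPM. For *Slc6a2*, *Dkk2* and *Ncam1* the lowest *Apln*-positive mouse lay above the highest *Apln*-lower mouse, whereas *Slco4a1* overlapped between the classes, at 10.9 to 62.2 against 0.0717 to 15.2 CPM. Calls were also lost for *Slco4a1* (without mutant 1, 2, 3 or 5), *Ncam1* (1, 3 or 5), *Bpifb1* (2, 3, 4 or 5), *Ccdc68* (any mutant) and *Them5* (1, 3 or 4), at adjusted p up to 0.105, 0.0683, 0.0973, 0.122 and 0.0666 (edgeR).

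The 10 with the largest decrease were *Gper1*, *Tox2*, *Alpl*, *Sema3g*, *Aif1l*, *Kcnn4*, *Eps8l2*, *St8sia6*, *Slc26a10* and *Hey1*, 4.15 to 7.34 lower. *Gper1*, a G protein-coupled estrogen receptor, was at 1.053, 0.0491, 0.345, 0.114 and 1.02 CPM against 110, 43.3, 68.1, 33.4 and 82.1 CPM (-7.34 ± 0.48, adjusted p = 0.000701). *Alpl*, tissue-nonspecific alkaline phosphatase, was at 0.0983 to 4.64 against 32.4 to 158 CPM (-6.41 ± 0.53). *Kcnn4*, a calcium-activated potassium channel, was at 0.0491 to 4.94 against 11.7 to 57.6 CPM. In *Apln*-positive cells these 3 genes stayed under 5 CPM in every mutant. The calls of *Aif1l* (without mutant 1), *Kcnn4* (1, 2 or 5) and *St8sia6* (1, 2, 3 or 5) were lost in the fits without those mice, at adjusted p up to 0.0542, 0.0894 and 0.0968 (edgeR).

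Markers of perivascular cells moved with the classes. Of 8 tested mural cell markers 5 were lower in *Apln*-positive cells of the mutants (*Pdgfrb*, *Rgs5*, *Acta2*, *Myh11* and *Notch3*), and the 9 listed summed to 124 to 170 CPM against 236 to 624 CPM. *Myh11* was not called without mutant 1, 3 or 4 and *Notch3* not without mutant 3 (adjusted p up to 0.102 and 0.0627, edgeR). Of 6 tested fibroblast markers only *Col1a1* was lower, a call lost without any of the 5 mutants (adjusted p up to 0.1002, edgeR), and the 7 listed summed to 8.02 to 33.7 against 34.5 to 130 CPM. At least 100 CPM summed over *Col1a1*, *Col1a2*, *Dcn*, *Lum*, *Pdgfra* and *Pdgfrb* occurred in 1.16 to 6.92% of *Apln*-positive and 3.57 to 10.97% of *Apln*-lower mutant cells. Without those cells 671 genes were called, 637 of them also called before. None of the 6 tested keratinocyte, 5 LEC or 2 immune markers was called.

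Over ranges of *Apln*, cells from 50 to under 200 CPM had intermediate levels of most of these genes, with a large spread between mice. As the mean of 5 mutants, *Mmp2* was at 413 CPM in cells with no *Apln* read, 510 CPM above 0 and under 50 CPM, 1682 CPM from 50 to under 200 CPM and 2447 CPM at 200 CPM or more. *Bgn* was at 303, 616, 779 and 1777 CPM, and *Vwf* at 894, 1033, 1939 and 1920 CPM in the same order. *Gja4* was at 278, 256, 53.8 and 15.5 CPM and *Cd36* at 1603, 2133, 1334 and 491 CPM. *Angpt2* was at 166, 184 and 200 CPM and only in cells at 200 CPM or more at 33.5 CPM. The cells with no *Apln* read (9 to 13 a mouse) and those with few reads overlapped between mice in these 6 genes. Levels of *Mmp2* and *Gja4* changed at the limit and went on changing above it. *Bgn* rose less across the limit, from 616 to 779 CPM, than below or above it. No test was made over these ranges.

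**Figure D5:**
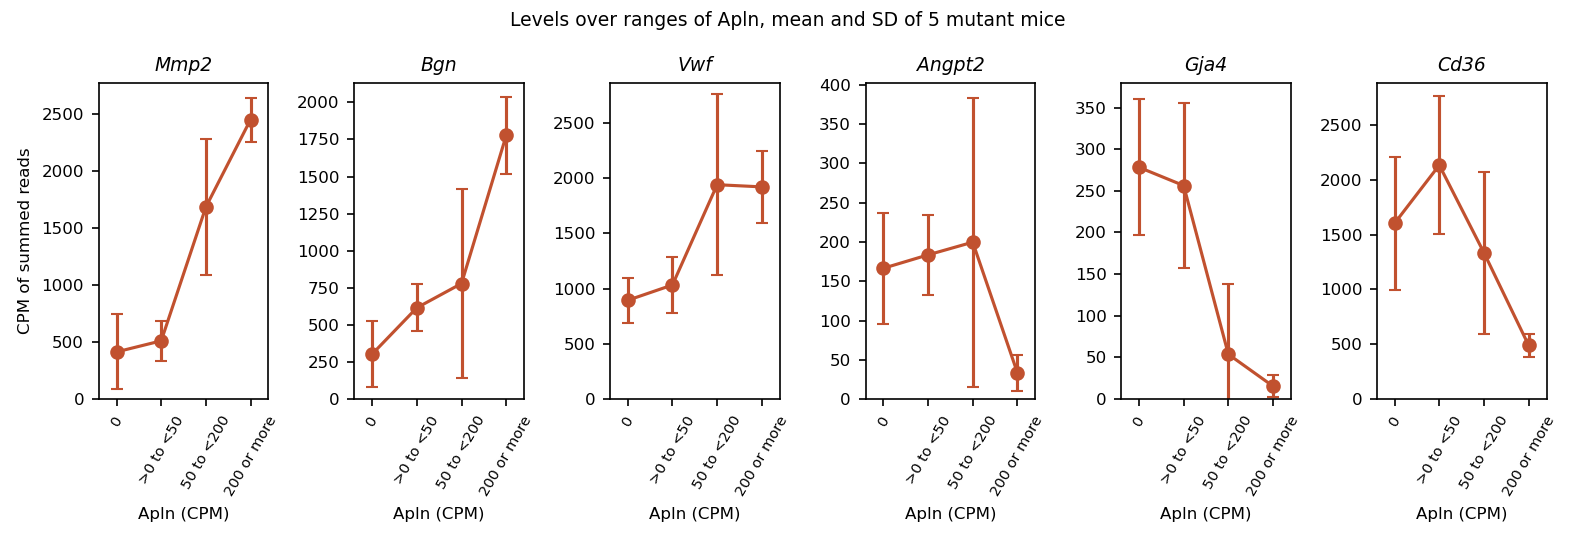
CPM of summed reads (y axis) of 6 genes in mutant BECs over 4 ranges of *Apln* (x axis, CPM); points are means and bars SDs of 5 mice. *Mmp2* goes from 413 to 2447 CPM and *Gja4* from 278 to 15.5 CPM, with the widest bars from 50 to under 200 CPM, where a mouse has 5 to 29 cells.

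The few *Apln*-positive cells of the controls, 15 and 26, could be compared with *Apln*-lower cells in only 2 mice. None of 15429 genes was called by edgeR (0.0%), with 852 at an unadjusted p under 0.05 and 215 called by DESeq2. On simulated counts of this comparison edgeR recovered 27% of genes with a 4-fold change and 0% with a 2-fold change, so that most differences could not be detected. Values of single genes are therefore given as a description. *Gja4* was lower in *Apln*-positive cells of both controls, 15.4 against 196 CPM and 6.36 against 343 CPM, as in the mutants. *Ccnd1* was higher, 448 against 123 CPM and 738 against 222 CPM. *Mmp2*, in contrast, was at 150 against 228 CPM and 106 against 196 CPM, and *Angpt2* at 251 against 66.3 CPM and 286 against 90.1 CPM, in each case opposite to the mutants. The 7 fibroblast markers summed to 1083 and 879 CPM in *Apln*-lower and 322 and 185 CPM in *Apln*-positive cells of controls 1 and 2. *Nr2f2* was at 53.4 against 42.9 and 29.5 against 22.2 CPM. Of the genes called higher in mutants, 194 of 332 tested in controls were higher there too (58.4%, against 41.3% of all genes, with 21.2% higher in both controls), and of those called lower 315 of 424 were lower (74.3%, against 58.7%, with 30.4% lower in both controls).

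Whether the difference between *Apln*-positive and *Apln*-lower cells itself depended on the genotype was tested by the interaction of class and genotype. Of 19376 genes 47 were called (0.243%), 40 with a more positive difference in mutants (0.206%) and 7 with a more negative one (0.0361%). The median over all genes was 0.33, and 1628 genes were called with DESeq2. *Mmp2*, a proposed marker chosen with results of these data known, was among the 47, 3.11 ± 0.33 more positive in mutants (adjusted p = 0.0296, edgeR). *Col6a3*, a chain of microfibrillar collagen VI, was at 257 to 420 CPM in *Apln*-positive and 30.1 to 121 CPM in *Apln*-lower mutant cells, against 1.09 and 0.996 CPM and 22.3 and 32.1 CPM in the controls (7.48 ± 0.52, adjusted p = 0.00506). *Tmem119*, a transmembrane protein, was at 134 to 199 against 33.3 to 71.3 CPM in mutants and at 0.543 and 0.124 against 18.5 and 23.1 CPM in controls (7.78 ± 0.61, adjusted p = 0.00629). *Col6a3* and *Tmem119* passed in all 7 fits that left out 1 mouse, whereas the number of calls was 2, 2, 2, 10 and 4 without mutants 1 to 5 and 419 and 488 without controls 1 and 2, and *Mmp2* did not pass without mutant 1, 2, 3 or 4 (adjusted p up to 0.0925, edgeR). Without the cells with arterial reads no gene was called, with 2074 at an unadjusted p under 0.05 and 0 of the 47 passing (edgeR). Without the cells with fibroblast or mural reads the difference of *Col6a3* was 6.99 and passed, whereas that of *Mmp2* was 1.404 and did not (adjusted p = 0.0741, edgeR).

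*Igfbp3*, a binding protein of insulin-like growth factors, was at 507 to 906 CPM in *Apln*-positive and 455 to 679 CPM in *Apln*-lower mutant cells, and at 164 and 194 against 468 and 641 CPM in controls (1.85 ± 0.21, adjusted p = 0.0338). *Ptprb* and *Vcam1* were called with 1.03 ± 0.15 and 5.08 ± 0.70. *Igfbp3* did not pass without mutant 1, 2, 3 or 5 (adjusted p up to 0.1003, edgeR), *Ptprb* without any of the 5 mutants (up to 0.121) and *Vcam1* without any mutant or control 1 (up to 0.119). All 7 genes with a more negative difference in mutants are *Cd300lg*, *Pim3*, *Cst3*, *Hspb1*, *Tspan13*, *Traf4* and *Mpzl1*. *Hspb1*, a small heat shock protein, was at 142 to 171 against 300.2 to 370 CPM in mutants and at 530 and 605 against 476 and 511 CPM in controls (-1.32 ± 0.17), and *Cst3*, cystatin C, at 442 to 739 against 996 to 1484 CPM and at 1606 and 1702 against 1730 and 2082 CPM (-0.92 ± 0.11). None of these 7 passed in any fit without 1 of the 5 mutants (adjusted p up to 0.121, edgeR), and *Cd300lg* did not pass without control 2 either (0.0581). The tip cell genes did not pass this test, so that the opposite direction of *Angpt2* in the 2 genotypes was not shown to differ.

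The mutant *Apln*-positive cells differed from those of controls in many genes. Of 16481 tested, 802 were called (4.87%), 606 higher (3.68%) and 196 lower (1.19%) in mutants. *Mmp2*, given as a description since it is a proposed marker, was at 2391 ± 161 CPM (SD, n = 5) in mutants and at 146 and 103 CPM in controls (4.27 ± 0.21). *Enpp6*, a choline-specific phosphodiesterase, was at 465, 330, 397, 437 and 324 CPM and had no read in 41 control cells, at least 1736-fold higher against a floor of 3 reads over the control group. *Madcam1*, the venular adhesion molecule for gut-homing leukocytes, was at 19.7 to 72.5 CPM and at 0, at least 233-fold higher. *Col6a3* was at 322 ± 62.5 CPM against 1.11 and 1.00 CPM. These genes did not overlap between the genotypes, as was the case for 30.2% of all genes.

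Among the lists, 3 of 10 venous genes were higher in mutants, among them *Nr2f2* at 151 ± 21.7 against 51.7 and 28.5 CPM (1.92 ± 0.31) and *Selp* at 739 ± 105 against 219 and 82.4 CPM (2.30 ± 0.38). *Bgn* was at 1718 ± 266 against 621 and 239 CPM (2.00 ± 0.36). The calls of *Nr2f2* and *Selp* were lost without mutant 1, 2 or 3 and that of *Bgn* without mutant 1, 2, 3 or 4, at adjusted p up to 0.0530, 0.0539 and 0.0625 (edgeR). Of 15 glycolysis and hypoxia genes 6 were higher and none lower (*Pgk1*, *Pkm*, *Ldha*, *Eno1*, *Aldoa* and *Pgam1*). Of 16 tip cell genes *Marcksl1* was higher and *Esm1*, *Dll4* and *Pdgfb* were lower. *Esm1* was at 0.799 ± 1.48 CPM in mutants and at 27.9 and 124 CPM in controls (-6.51 ± 1.41, adjusted p = 0.0374), a call lost without control 2 or without mutant 1, 2, 4 or 5 (adjusted p up to 0.0893, edgeR).

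These genotype differences moved with reads of other cells and with the plate series. At least 100 CPM of the 6 fibroblast and mural genes occurred in 9 of 15 *Apln*-positive cells of control 1 and 10 of 26 of control 2, and *Dcn* and *Col1a2* were among the genes lower in mutants. The 7 fibroblast markers summed to 322 and 185 CPM in control and 8.02 to 33.7 CPM in mutant *Apln*-positive cells. At least 100 CPM of *Prox1*, *Flt4* and *Mmrn1* occurred in 73.3 and 30.8% of control and 16.9 to 47.0% of mutant *Apln*-positive cells. The part of these reads in the genotype differences was not tested beyond leaving such cells out, which gave 2067 calls without fibroblast or mural reads and 2991 without LEC reads, the latter with control 2 alone. Within the plate series of mutant 5 and the controls 12 genes were called, all higher, with 1 mutant mouse. Without 1 mutant the number of calls was 177, 175, 195, 257 and 562 (mutants 1 to 5), against 802 with all mice. The count thus fell with each mutant left out, least without mutant 5. Without either control it rose, with 1 control mouse left.

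Among *Apln*-lower BECs, 1 of 17967 genes was called between the genotypes (0.00557%), with 1828 at an unadjusted p under 0.05 and 471 called by DESeq2. This gene, *Chad*, the cartilage matrix protein chondroadherin, was at 95.1 and 47.7 CPM in controls and at 0 to 0.118 CPM in mutants, and its call was lost without either control (adjusted p = 0.233 and 0.0740, edgeR). This comparison held 268 control cells, against 41 among the *Apln*-positive cells, but again only 2 control mice. On simulated counts of this comparison edgeR recovered 6% of genes with a 2-fold and 53% with a 4-fold change, so that many differences could not be detected.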

How the data were processed

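Per the labels and the study's methods, the authors aligned the reads with TopHat2 (2.1.1) to GRCm38 with an added transgene sequence, removed duplicates with SAMtools (0.1.18), which limits high counts, and used featureCounts to count them over genes, with an annotation whose version is not given in the sources used here. The deposited values are raw read counts per well for 46517 Ensembl genes and 92 spike-ins, and 46005 genes were given a symbol. Smart-Seq2 keeps no strand, so that reads from exons shared by genes on opposite strands cannot be told apart. Overlaps were taken over whole genes, and whether exons are shared was not determined. On opposite strands, for example, *Angpt2* overlaps *Mcph1*, *Esm1* *Gzmk*, *Ccnd1* *LTO1*, *Col18a1* *Slc19a1*, *Plvap* *Gtpbp3* and *Fn1* *Apol7d*. So do *Gapdh* and *Iffo1*, *Timp3* and *Syn3*, *Tpi1* and *Spsb2*, *Igf2* and *Igf2os*, *Slc26a10* and *B4galnt1*, and *Chad* and *Acsf2*. *Ackr1* overlaps *Cadm3* on the same strand.

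The cells and gene lists were chosen with earlier results of these data known. Reads were summed per mouse and class (at least 5 cells; plates of 1 mouse pooled), since the mouse is the replicate, and tested with edgeR (4.0.16; filterByExpr, TMM, quasi-likelihood test) in R 4.3.3, with DESeq2 (1.42.0) as an alternative; the 14 genes of the rule were not tested. Medians per mouse were compared by exact permutation tests, and shares set by the genes of the rule are given with no test. Both classes come from the same animals, and their deviations from the class means correlated at 0.134 to 0.451 within a mouse, against at most 0.105 between mice, so that the mouse was kept as a block. Besides the listed genes, the text names the 10 called genes with the largest difference in each direction, at a mean log2 CPM of at least 4, with the same sign in every mouse or groups that do not overlap, and without Gm and Rik names; 1 of them is not reported here. Tested on simulated data for the comparison within mutants (15200 genes), edgeR recovered 43% of 2-fold and 89% of 4-fold changes with 6 false calls, and DESeq2 68% and 100% with 104. No doublet caller was run; cells with fibroblast, mural, lymphatic or arterial reads were left out in turn. No well was identical to another, and no well name was shared between plates. Alternative limits, depths, filters, scalings and left-out mice are given below.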

Additional observations from a re-analysis of the deposited data

Results flagged for a closer look

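Within the mutants, 19 of 206 groups of 5 mice held a mouse that stood apart from the other 4 by Dixon's criterion, where chance alone gives about 10.3. In *Apln*-positive cells, mutant 1 was high for *Vwf* (2648.5 CPM) and *Lrg1* (1823.4 CPM), mutant 3 was high for *Esm1* (3.4683 CPM), and mutant 5 was high for *Cavin1* (1091.2 CPM), *Tpi1* (597.71 CPM), *Col1a1* (12.383 CPM) and *Tox2* (4.2123 CPM). In *Apln*-lower cells, mutant 1 was high for *Bgn* (890.92 CPM) and *Icam1* (439.29 CPM), and mutant 2 for *Nid1* (377.44 CPM) and *Pgam1* (211.99 CPM). Mutant 5, the only mutant in the plate series of the controls, was low in *Apln*-lower cells for *Aplnr* (527.97 CPM), *Cxcl12* (1783.5 CPM) and *Cd300lg* (904.65 CPM), and high for *Slc2a1* (317 CPM), *Tpi1* (361.06 CPM), *Bnip3* (309.15 CPM), *Slco4a1* (15.183 CPM) and *Ephb4* (544.41 CPM). The part of the plate series in these values was not tested.

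For 21 named genes the difference between *Apln*-positive and *Apln*-lower cells passed the interaction test with the genotype in all 7 mice. Of all 47 calls, 2 remained without mutant 1, 2 or 3, 9 without mutant 4, 4 without mutant 5, 5 in cells with 3000 to 4500 genes and 0 without cells with arterial reads (edgeR). *Rassf10*, *Mettl7a1*, *Tmem38b*, *Raet1e*, *Ksr1* and *Cdr2l* did not pass without any of the 5 mutants, *Masp1* without mutant 1, 2, 3 or 5 or control 1, *Enpp6* without mutant 1, 2 or 3 and *Ksr1* without control 2 either (adjusted p up to 0.122, and 1 for *Masp1* without control 1, edgeR). The log2 difference was more positive in mutants for *Mmp2* (3.1067), *Col6a3* (7.4849), *Tmem119* (7.7798), *Masp1* (7.2872), *Rassf10* (7.809), *Mettl7a1* (7.9994), *Igfbp3* (1.8475), *Vcam1* (5.0826), *Ptprb* (1.0263), *Tmem38b* (7.2107), *Raet1e* (7.0058), *Ksr1* (6.6557), *Cdr2l* (6.542) and *Enpp6* (13.729). The *Apln*-positive cells of both controls had no *Enpp6* read, so that its fitted value depends on the prior count and is no bound, and *Masp1*, *Rassf10*, *Mettl7a1* and *Tmem38b* had none in control 2. It was more negative for *Cd300lg* (-1.4285), *Pim3* (-1.8944), *Cst3* (-0.91803), *Hspb1* (-1.3198), *Tspan13* (-1.4602), *Traf4* (-4.1146) and *Mpzl1* (-1.3765). For *Rassf10* the mutant classes were close, 17.3 to 34.1 against 10.8 to 37.1 CPM, and the controls carried the difference, at 0.181 and 0 against 17.98 and 12.5 CPM.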

How the results depend on the processing

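The share of *Apln*-positive cells was higher in mutants than in controls in every alternative, by 30.7 to 45.1 percentage points (31.0 to 38.6 without 1 mouse). Of genes called within mutants, 786 in all, the number was 2227 with DESeq2, 367 with *Apln* at least 20 CPM, 28 against lower cells without an *Apln* read (9 to 13 cells a mouse), 593 with no replicate block, 304 without cells with arterial reads, 248 with 3000 to 4500 genes a cell (both chosen after seeing the data) and 431 to 509 without 1 mouse. Within controls it was 0, with 215 for DESeq2, 8 with no filter on low counts and 4 without cells with fibroblast or mural reads; leaving out 1 control left 1 mouse and no residual degree of freedom, as did leaving out cells with LEC reads. For the interaction, 47 in all, it was 1628 with DESeq2, 30 with cells thinned to 50000 reads, 485 without cells with fibroblast or mural reads and, chosen after seeing the data, 521 without cells with LEC reads (1 control left), 9 with 3000 to 4500 genes, 0 without arterial reads and 2 to 488 without 1 mouse. For *Apln*-positive cells of mutants against controls, 802 in all, it was 3011 with DESeq2, 529 with the cycling sum under 100 CPM, 12 in 1 plate series, 4 with the replicate number as a replicate block, 2991 and 2067 without LEC and without fibroblast or mural reads, and 175 to 2819 without 1 mouse. For *Apln*-lower cells, 1 in all, it was 471 with DESeq2, 0 thinned, 6 unfiltered, 0 in 1 plate series, 12 with the replicate block, 12 and 0 without LEC and without fibroblast or mural reads, and 0 to 3 without 1 mouse. Across genotypes the replicate numbers mark no shared animal. With fewer mice or cells some counts fell and others rose, and the cause of these changes was not tested. Of single genes, the sign turned for *Aplnr* (0.0039), *Rgs5* (0.27), *Acta2* (0.45) and *Ackr1* (0.0076) against lower cells without an *Apln* read, for *Gja5* (0.72) and *Stmn2* (0.31) without arterial reads, for *Ackr1* with *Apln* at least 20 CPM (0.066), thinned (0.15) and without mutant 3 (0.098) or 4 (0.039), its values without 1 mouse running from -0.17 to 0.098, and for *Pmel* between genotypes without LEC reads (0.23). Leaving out cells with arterial or capillary reads left 1 to 8 cells a class and mouse and was not run as a fit. In the simulated counts, DESeq2 made 84 to 199 false calls a comparison and edgeR 0 to 10. The 41 cells of the control *Apln*-positive class limit what could be detected there.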
